A study of Mus musculus with 18 samples.

Results

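The 10 genes described here, *Csf1*, *Igf1*, *Spp1*, *Lgals3*, *Cst7*, *Fam20c*, *Clec7a*, *Itgax*, *Axl* and *Gpnmb*, encode secreted and cell-surface effectors of disease-associated microglia. They were taken by name from a table of transcript counts and summed per gene, which gave 10 genes of 35960 rows by gene, built from 55 of 116873 transcripts. The genes were selected on the difference between the mutant and the wild-type microglial libraries, so their values in that contrast are a description and carry no test. The libraries came from brains of 10-month-old C57BL/6 mice that were either wild-type (WT) or homozygous for *Atxn2*-CAG100-KIN, a knock-in of an expanded CAG repeat into the endogenous mouse *Atxn2* gene that models spinocerebellar ataxia type 2. The labels give no other allele and no treatment for any group. Each brain was dissociated and separated on magnetic beads, first with anti-CD11b beads (microglial fraction), then with anti-ACSA-2 beads (astrocytic fraction), and last by depletion of non-neuronal and CD31-positive cells (neuronal fraction), and each of the 3 fractions gave 3 libraries for each of the 2 genotypes. CD11b is also carried by other myeloid cells, so the microglial fraction can hold them. Mice of both sexes were used, per the study's methods, but the labels give no sex for a single library. The methods also describe KIN and WT animals as littermates of the same sex, compared in pairs. The labels do not say which libraries form a pair or share a brain, so the main fits took all libraries as independent.

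Disease-associated microglia (DAM) are the state that microglia take up around amyloid plaques, dying neurons and degenerating myelin. In that state the purinergic receptors and other genes of surveying microglia are lowered, and genes for lipid handling, lysosomal proteases, lectins and secreted growth factors are raised, in part downstream of the receptor TREM2 and its adaptor TYROBP. Among the 10 genes, *Csf1*, *Igf1* and *Spp1* encode ligands, *Clec7a*, *Itgax* and *Axl* encode receptors, and *Lgals3*, *Gpnmb*, *Cst7* and *Fam20c* encode a lectin, a lysosomal and surface glycoprotein, a protease inhibitor and a secretory-pathway kinase.

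The sequence around the RefSeq transcription start was examined because the genes moved together in one fraction. Windows of 300 bases, from 250 before to 50 after the start, were held for all 10 genes (12 windows in RefSeq on GRCm38.p6), and 5 letter patterns were searched on both strands. The AP-1 pattern TGANTCA was present in 4 of the 12 windows (*Cst7*, *Gpnmb*, *Igf1* and *Itgax*), against 7.81% of all 32851 windows. It was searched loosely, with any base at N, which was T in *Cst7*, C in *Gpnmb*, A in *Igf1* and G in *Itgax*. The PU.1 pattern GAGGAAGT was present in 1 of the 12 (*Spp1*), against 3.2% of windows. The TATAAA pattern was present in 2 of the 12 (*Clec7a* and *Spp1*), against 13.6% of windows. The M-box CATGTG (14.2% of windows) and the E-box CACGTG (7.15% of windows) were in none of the 12 windows, which says only that these letters are not in these 300 bases. The first 2 patterns do not overlap each other in the stretches shown. The following 30-base stretches show the 5 matches of these 2 patterns in their context, plus strand, 5′ to 3′, with the matched letters in capitals. Each was placed on GRCm39 by a single exact match of its RefSeq window.
Cst7: tctggttaaaaTGATTCAgcaagaaaccac
Itgax: cccacctcctcTGAGTCAcgctgacaactt
Gpnmb: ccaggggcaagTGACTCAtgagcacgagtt
Igf1: gagctggaactTGAATCActattctggata
Spp1: caaaaccagagGAGGAAGTgtaggagcagg
These stretches lie at chr2:150412318-150412347 (*Cst7*), chr7:127728655-127728684 (*Itgax*), chr6:49013449-49013478 (*Gpnmb*), chr10:87696925-87696954 (*Igf1*) and chr5:104582853-104582882 (*Spp1*). All 30 bases lay in exons of the GENCODE annotation, except in *Itgax*, where 17 did. The first matched base lay 6 bases before the RefSeq start in *Cst7*, 56 before it in *Itgax*, 37 before it in *Igf1* and 113 before it in *Spp1*, and at position 9 of the transcript in *Gpnmb*. The RefSeq start lay 3331 bases downstream of the GENCODE gene start in *Igf1* and 812 bases in *Spp1*, but 26 to 54 bases in the other 3 genes, so the windows of *Igf1* and *Spp1* are not those before the first start of the gene. A match of letters is a description of the window and not evidence of binding.

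The libraries were shallow, with totals of 2334633 to 3296398 counts in WT and 2511565 to 2931018 in KIN microglia, 2118317 to 2829969 in the 6 astrocytic and 761481 to 2017932 in the 6 neuronal libraries. The highest count of any of the 10 genes in one library was 125 reads. The 5 microglial markers used for the check (*Aif1*, *Tmem119*, *P2ry12*, *Cx3cr1*, *Csf1r*) summed to between 371 and 644 CPM (counts scaled to a common library size) in the microglial libraries and to between 3.17 and 11.3 CPM in all other libraries. The 8 neuronal markers summed to between 102 and 165 CPM in the neuronal fraction, a range that overlapped the 38.0 to 116 CPM of the WT astrocytic fraction, so the neuronal fraction was little set apart by them. Among the microglial libraries WT microglia 2 stood apart, with a microglial marker sum of 644 CPM against 371 and 372 CPM in the other WT libraries. Among the neuronal libraries WT neurons 2 stood apart, with an oligodendrocyte marker sum of 238 CPM against 9.72 and 19.95 CPM in the other WT and 15.4 to 31.9 CPM in the KIN libraries. Levels below are CPM on library sizes scaled by the trimmed mean of M values (TMM) over all 18 libraries, given with the SD of n = 3 libraries, and they are compared between libraries for one gene and not between genes. In such bulk fractions, fewer cells of a type and less RNA per cell cannot be told apart.

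All 10 genes had their highest mean level in the KIN microglial fraction, and in all 10 the 3 KIN microglial libraries lay above all 15 other libraries. Nothing is read from this order, since the KIN microglial libraries had a part in choosing the genes. Its share over all genes was not computed. The summed level of the 10 genes was 30.3, 33.7 and 28.8 CPM in the WT microglial libraries 1, 2 and 3 and 234, 174 and 187 CPM in the KIN microglial libraries 1, 2 and 3. It lay between 19.0 and 26.3 CPM in the 6 astrocytic and from 6.65 to 17.9 CPM in the 6 neuronal ones. In the KIN versus WT contrast of microglia, all 10 were called higher (edgeR quasi-likelihood test, adjusted *p* no higher than 0.05 and a log2 fold change, log2FC, of 1 or more in size) and none overlapped between the genotypes. Over all 10831 genes tested in that contrast, 0.739% were called higher, 0.785% were called lower and 8.49% had all KIN libraries above all WT libraries. Nothing is read from the count of the 10, since this contrast chose them. Besides, 4 of them (*Cst7*, *Spp1*, *Itgax* and *Igf1*) passed the low-count filter (5 or more reads in 2 or more libraries) only through the KIN group.

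**Figure D1:**
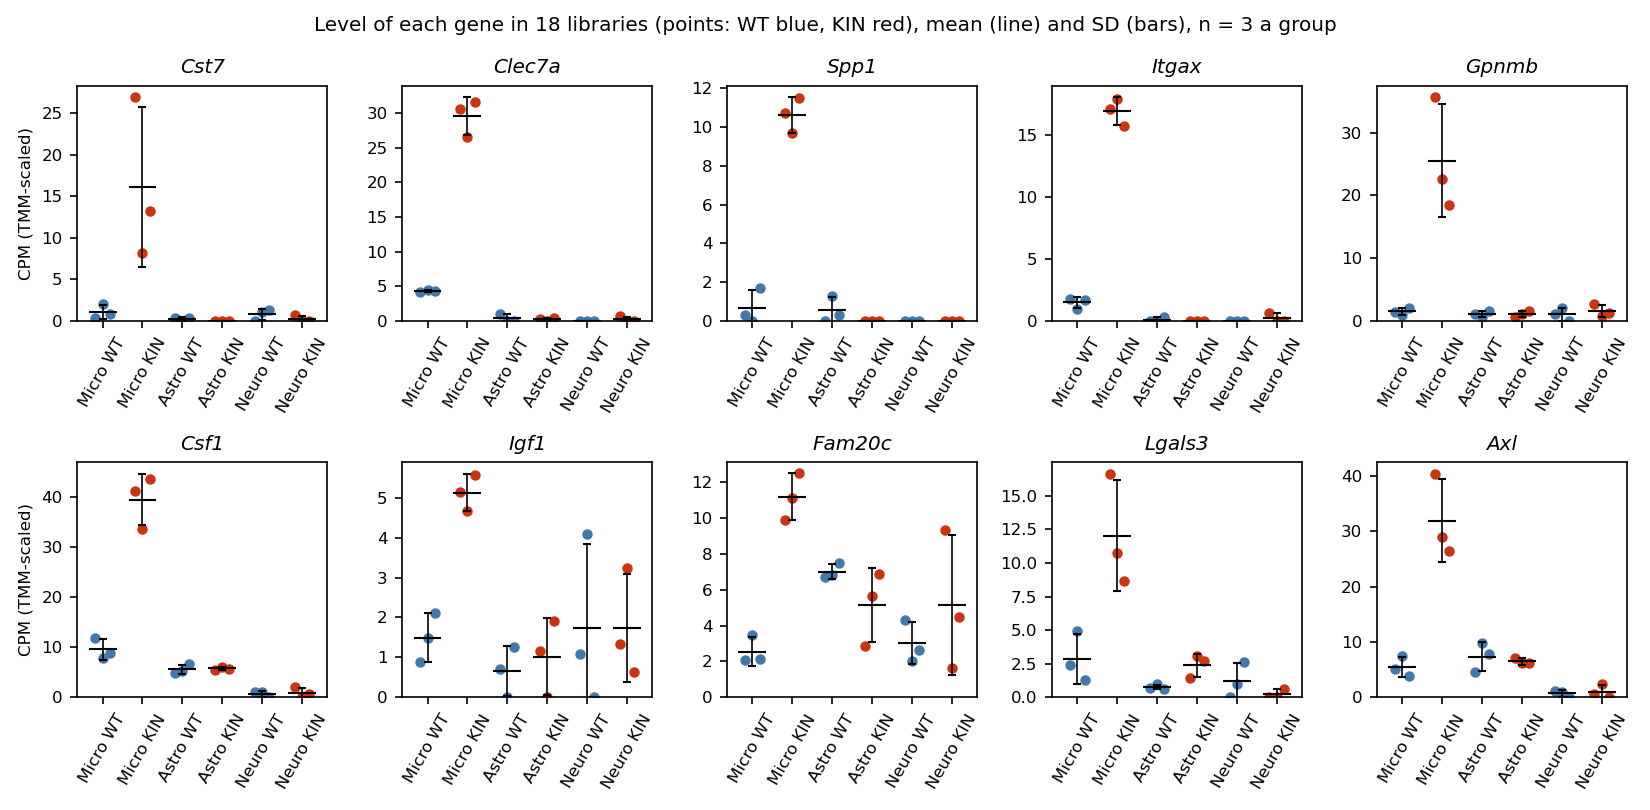
Levels in CPM of the 10 genes in each of the 18 libraries (linear axis from 0), by fraction and genotype, with points for libraries, lines for the means and bars of 1 SD (n = 3). In every panel the 3 KIN microglial libraries are the highest, with the smallest gaps in *Fam20c* (9.91 against 9.31 CPM) and *Igf1* (4.66 against 4.10 CPM).

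Firstly, the ligands are described. *Csf1* (ENSMUSG00000014599, chr3:107648364-107667806, minus strand of GRCm39) encodes macrophage colony-stimulating factor, the growth and survival factor of microglia. Its level was 11.9, 7.92 and 8.90 CPM in the WT and 41.2, 33.7 and 43.5 CPM in the KIN microglial libraries. The mean thus went from 9.56 ± 2.06 to 39.5 ± 5.15 CPM, with a log2FC of 2.02 (SE 0.25) and a ratio of summed counts of 3.97 (95% exact interval 3.09 to 5.16). All KIN libraries were high, and the lowest of them was over the highest WT library. *Csf1* was also counted in astrocytes, at 5.57 ± 0.880 CPM in WT and 5.78 ± 0.338 CPM in KIN, a level that did not differ between the genotypes beyond its spread (log2FC 0.02, SE 0.32, edgeR adjusted *p* = 0.981, ratio 1.02 with an interval of 0.671 to 1.55). The ratio intervals here and below cover counting error only.

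*Igf1* (ENSMUSG00000020053, chr10:87693642-87772904, plus strand) encodes insulin-like growth factor 1, a trophic factor for neurons and oligodendrocyte precursors. It was the most sparsely counted of the 10 in KIN microglia, with 3, 3 and 5 reads in the WT and 13, 13 and 16 reads in the KIN libraries, or 0.890, 1.48 and 2.12 against 5.15, 4.66 and 5.57 CPM. The groups did not overlap, at a log2FC of 1.81 (SE 0.45) and a ratio of 3.61 (1.83 to 7.78). Its call depended on the libraries, since it was lost in 5 of 6 fits with one library left out, all but the one without WT microglia 2 (log2FC 1.45 to 2.14), in the fit of all 18 libraries together (1.80) and with DESeq2 without independent filtering (1.81), while default DESeq2 gave it no adjusted *p*. Outside microglia *Igf1* had 0 to 5 reads per library, and its highest value was 4.10 CPM from 4 reads in a WT neuronal library.

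*Spp1* (ENSMUSG00000029304, chr5:104582165-104589235, plus strand) encodes osteopontin, a secreted glycoprotein that binds integrins and CD44. It had 1, 0 and 4 reads in the WT and 27, 27 and 33 reads in the KIN microglial libraries, or 0.297, 0 and 1.70 against 10.7, 9.67 and 11.5 CPM. The 3 KIN libraries were close to each other (10.6 ± 0.909 CPM), and the log2FC of 3.95 (SE 0.49) rested on 5 WT reads, with a ratio of 16.5 (6.79 to 52.0). Over the fits with one library left out it ran from 3.46 without WT microglia 1 to 5.52 without WT microglia 3, the library with 4 of these 5 reads. *Spp1* was at 0 in all 6 neuronal libraries and in the 3 KIN astrocytic libraries, and had 0, 4 and 1 reads in the WT astrocytic libraries.

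Secondly, the receptors are described. *Clec7a* (ENSMUSG00000079293, chr6:129438554-129449742, minus strand) encodes Dectin-1, a C-type lectin receptor that signals through SYK and CARD9. Its level was 4.16, 4.45 and 4.24 CPM in the WT and 30.5, 26.5 and 31.7 CPM in the KIN microglial libraries. Within each genotype the libraries were nearly level, at 4.28 ± 0.154 and 29.6 ± 2.71 CPM, with a log2FC of 2.78 (SE 0.28) and a ratio of 6.94 (4.81 to 10.3). Leaving out any one library moved the log2FC only from 2.73 to 2.86. *Clec7a* had 0 to 3 reads in each astrocytic and 0 or 1 in each neuronal library.

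*Itgax* (ENSMUSG00000030789, chr7:127728668-127749829, plus strand) encodes CD11c, the integrin alpha X chain that pairs with the ITGB2 chain. It was counted at 1.78, 0.990 and 1.70 CPM in the WT and 17.0, 17.9 and 15.7 CPM in the KIN microglial libraries. The KIN libraries again lay close together (16.9 ± 1.13 CPM), far from the 1.49 ± 0.434 CPM of WT microglia. The log2FC was 3.41 (SE 0.34) and the ratio 10.9 (6.03 to 21.6), from 138 KIN and 12 WT reads in sum. Across the 12 astrocytic and neuronal libraries *Itgax* had 2 reads, 1 in a WT astrocytic and 1 in a KIN neuronal library.

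*Axl* (ENSMUSG00000002602, chr7:25456535-25488329, minus strand) encodes a receptor tyrosine kinase of the TAM family that binds GAS6 and takes part in the clearance of dying cells. Its level was 5.05, 7.42 and 3.81 CPM in the WT and 40.4, 29.0 and 26.4 CPM in the KIN microglial libraries, with KIN library 1 the highest. The log2FC was 2.57 (SE 0.29) and the ratio 5.98 (4.29 to 8.53). In astrocytes *Axl* stood at 7.38 ± 2.61 CPM in WT and 6.49 ± 0.614 CPM in KIN, overlapping between the genotypes (log2FC -0.20, SE 0.31, edgeR adjusted *p* = 0.758). WT astrocytes thus had the second highest mean of *Axl*, followed by KIN astrocytes and WT microglia, 3 groups whose libraries overlapped.

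Thirdly, the lectin, the glycoprotein, the protease inhibitor and the kinase are described. *Lgals3* (ENSMUSG00000050335, chr14:47605208-47623624, plus strand) encodes galectin-3, which is released by activated microglia and binds glycans on lysosomes and receptors. It was counted at 2.37, 4.95 and 1.27 CPM in the WT and 16.6, 10.7 and 8.70 CPM in the KIN microglial libraries. The means were 2.87 ± 1.89 and 12.0 ± 4.13 CPM, with a log2FC of 2.11 (SE 0.38) and a ratio of 4.37 (2.71 to 7.38). The spread was wide in both genotypes, and without KIN microglia 1 the call was lost at a log2FC of 1.81.

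*Gpnmb* (ENSMUSG00000029816, chr6:49013426-49047863, plus strand) encodes a transmembrane glycoprotein of lysosomes and the cell surface that is raised in foamy, lipid-laden macrophages. It had 5, 2 and 5 reads in the WT and 90, 63 and 53 reads in the KIN microglial libraries, or 1.48, 0.990 and 2.12 against 35.7, 22.6 and 18.4 CPM. The lowest KIN library was far over the highest WT library, with a log2FC of 4.00 (SE 0.38) and a ratio of 16.2 (9.10 to 31.9). In the other fractions *Gpnmb* had 0 to 5 reads per library, and the means of WT microglia (1.53), KIN neurons (1.58), WT astrocytes (1.09), KIN astrocytes (1.04) and WT neurons (1.04 CPM) had overlapping libraries.

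*Cst7* (ENSMUSG00000068129, chr2:150412284-150420864, plus strand) encodes cystatin F, an inhibitor of lysosomal cysteine proteases that limits cathepsin C. Its level was 0.297, 1.98 and 0.848 CPM in the WT and 27.0, 8.24 and 13.2 CPM in the KIN microglial libraries. It had the widest spread between KIN libraries among the 10 relative to its mean (16.1 ± 9.69 CPM), yet all 3 lay above every WT library, at a log2FC of 4.07 (SE 0.53) and a ratio of 17.4 (8.22 to 44.2). Over the fits with one library left out its log2FC ran from 3.48 to 4.80. *Cst7* was at 0 in the 3 KIN astrocytic libraries and had 0 or 1 reads in every other astrocytic or neuronal library.

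*Fam20c* (ENSMUSG00000025854, chr5:138740173-138795832, plus strand) encodes the Golgi casein kinase that phosphorylates secreted proteins, osteopontin among them. It was counted at 2.08, 3.46 and 2.12 CPM in the WT and 9.91, 11.1 and 12.5 CPM in the KIN microglial libraries, with a log2FC of 2.17 (SE 0.34) and a ratio of 4.58 (2.77 to 7.95). It differed from the other genes in its distribution over the fractions, since WT astrocytes (6.70, 6.82 and 7.51 CPM) lay above all WT microglia. KIN neurons ranged from 1.62 to 9.31 CPM (14, 2 and 7 reads), and the highest of them came near the lowest KIN microglial library.

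The order of the 3 KIN microglial libraries was not the same in all genes. Library 1 was the highest for 4 of the 10 (*Cst7*, *Gpnmb*, *Lgals3* and *Axl*), library 2 for 1 (*Itgax*) and library 3 for 5. Without WT microglia 2, the library that stood apart, all 10 were still called higher, with log2FC of 4.80 for *Cst7*, 2.60 for *Lgals3* and 1.83 for *Igf1*. Without KIN microglia 1, 8 were called, *Igf1* and *Lgals3* being the ones lost. These counts are descriptions too, since the contrast chose the genes.

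**Figure D2:**
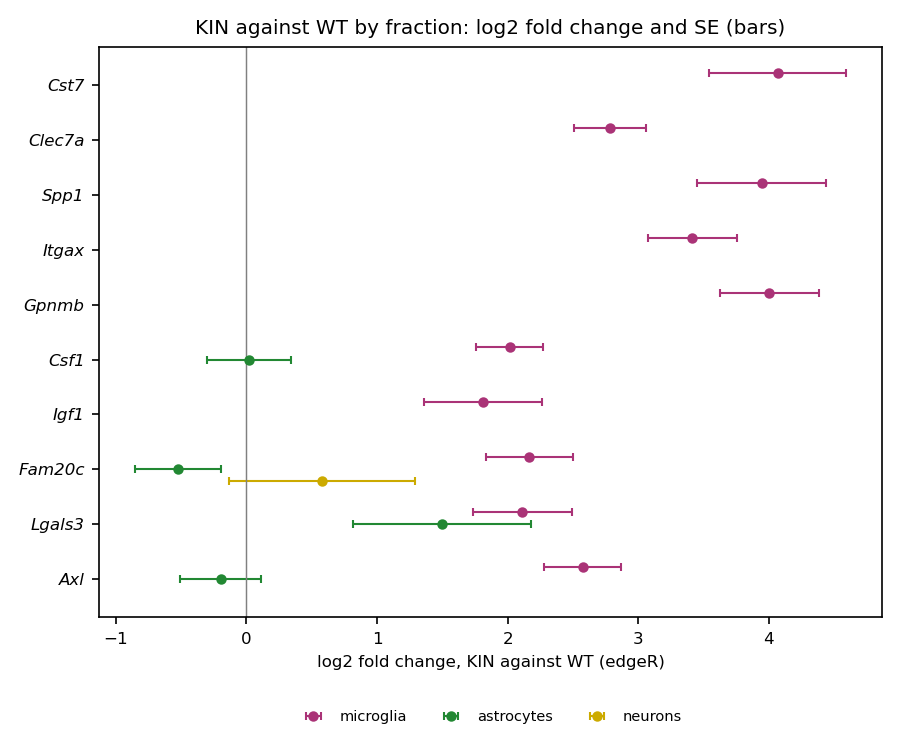
Log2 fold change, KIN over WT, of the 10 genes in each fraction where they passed the filter, with bars of 1 SE. In microglia the values run from 1.81 (*Igf1*) to 4.07 (*Cst7*), whereas the 4 genes tested in astrocytes lie between -0.52 and 1.50 and the one tested in neurons at 0.58.

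The same genotype contrast in the other fractions used other libraries than the contrast on which the genes were selected. Earlier results of these data were known at the choice, so these contrasts are not wholly independent of it. In astrocytes 4 of the 10 passed the filter on low counts and 0 were called, where 2.43% of the 11751 genes tested were called higher and 6.42% lower. Only *Lgals3* had an edgeR *p* under 0.05 before adjustment, where 10.4% of all genes were higher and 14.5% lower at that *p*. DESeq2 called 0 as well. *Lgals3* had 2, 3 and 2 reads in the WT and 5, 6 and 7 reads in the KIN astrocytic libraries, or 0.705, 0.974 and 0.626 against 1.44, 3.07 and 2.68 CPM. All KIN libraries were above all WT libraries, but the difference did not pass the adjustment over all genes (log2FC 1.50, SE 0.68, edgeR adjusted *p* = 0.154, ratio 2.91 with an interval of 1.16 to 8.25). Such an order was found in 1620 of the 11751 genes tested. *Fam20c* was 7.01 ± 0.440 CPM in WT and 5.13 ± 2.05 CPM in KIN astrocytes, with overlap (log2FC -0.52, SE 0.33, edgeR adjusted *p* = 0.334, ratio 0.690, 0.451 to 1.04). The 6 genes that were not tested had 0 to 5 reads in each astrocytic library. The microglial markers in the astrocytic fraction summed to 4.54 to 9.39 CPM in WT and 3.17 to 6.14 CPM in KIN.

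In neurons only *Fam20c* passed the filter, at 4.32, 2.05 and 2.66 CPM in WT and 9.31, 1.62 and 4.49 CPM in KIN. The libraries overlapped and the gene was not called (log2FC 0.58, SE 0.71, edgeR adjusted *p* = 0.970), and without WT neurons 2 the log2FC was 0.31. Over all genes, 0% of the 6765 genes tested were called higher and 0.0148% lower, and DESeq2 called 0 of the 10 too. Whether the microglial differences exceeded those in the other fractions was not tested.

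Next, the fractions were compared within the WT brains, a comparison whose WT microglial libraries were one side of the contrast that chose the genes. It is therefore given as a description without a test. Between WT microglia and WT astrocytes 6 of the 10 were tested, and 2 were called higher in microglia and 1 lower. For comparison, 13.3% of the 12157 genes tested were called higher in microglia and 13.7% lower. *Clec7a*, with 33 reads in WT microglia and 3 in WT astrocytes, was 12.9 times higher (interval 4.06 to 65.9, log2FC 3.58, SE 0.70). The 3 astrocytic reads all came from WT astrocytes 1, and the log2FC ran from 2.95 without WT astrocytes 3 to 6.61 without WT astrocytes 1, where the astrocytes were at 0. *Lgals3* was called higher as well (log2FC 1.84, SE 0.66), although its libraries were few in reads and the call was lost without WT astrocytes 1, without WT astrocytes 3 and with DESeq2. Without WT microglia 1 or WT microglia 2 the gene did not pass the filter and had no call, so it was called in 2 of 6 fits with one library left out. *Fam20c* was lower in microglia, with all 3 WT microglial libraries below all 3 astrocytic ones (log2FC -1.43, SE 0.40, ratio 0.349, 0.198 to 0.590).

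*Csf1* had all WT microglial libraries above the WT astrocytic ones, but its log2FC of 0.86 (SE 0.33) was under the fold needed for a call. *Gpnmb* and *Axl* had log2FC of 0.54 and -0.42 with overlapping libraries. *Itgax*, which was not tested, had 12 reads in WT microglia and 1 in WT astrocytes, a ratio of 14.1 with a wide interval of 2.09 to 603. *Cst7* had 7 reads against 2, with a ratio of 4.12 (0.784 to 40.6).

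Against WT neurons 6 were tested, and 3 were called higher in WT microglia and 0 lower, where 12.4% of the 9617 genes tested were called higher and 6.89% lower, with a median log2FC of 0.26 over all of them. *Clec7a* was at 0 in the WT neuronal libraries and at least 1.25-fold higher in WT microglia, measured against a floor of 3 counts per library. *Csf1* was higher by 3.44 on the log2 scale (SE 0.77). *Axl* was higher by 2.59 (SE 0.89), a call lost with DESeq2 and in 5 of 6 fits with one library left out. *Gpnmb* (0.31), *Fam20c* (-0.41) and *Lgals3* (1.10) were not called, and the WT neuronal libraries were the shallowest of the series. Without WT neurons 2, the library high in oligodendrocyte markers, 2 were called, *Clec7a* and *Csf1*, and *Gpnmb* had a log2FC of 1.11.

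Among the KIN libraries all 10 genes were called higher in microglia than in astrocytes and all 10 higher than in neurons, where 18.5% of the 11783 and 16.6% of the 10365 genes tested were called higher. The KIN microglial libraries had a part in choosing the genes, so these contrasts are described without a test. Against KIN astrocytes, where they were at 0, *Itgax* was at least 14.3-fold, *Cst7* at least 13.7-fold and *Spp1* at least 8.98-fold higher by the floor of 3 counts per library. *Clec7a* was 119 times higher (32.5 to 987, from 2 astrocytic reads), and *Gpnmb* 25.3 times higher. *Itgax*, *Cst7*, *Spp1* and *Clec7a* thus had 0 to 2 reads in sum in the other glial fraction of the same genotype, while *Gpnmb* had 2, 2 and 4 reads there. *Csf1* (2.77, SE 0.24), *Lgals3* (2.37, SE 0.35), *Axl* (2.26, SE 0.24) and *Igf1* (2.15, SE 0.49) had smaller log2FC, and *Fam20c* the smallest of 1.18 (SE 0.29, ratio 2.32, 1.58 to 3.46), a call lost at 0.78 without KIN astrocytes 1. Against KIN neurons *Csf1* (5.32, SE 0.44) and *Axl* (5.00, SE 0.47), each with 4 neuronal reads, had larger log2FC than against astrocytes. So did *Lgals3* (5.35, SE 0.71), with 1 neuronal read. With one library left out these values ran from 4.84 to 6.54, 4.35 to 6.36 and 4.81 to 7.70. *Fam20c* (1.06, SE 0.37) and *Igf1* (1.61, SE 0.56) stood lowest. DESeq2 called 8 of the 10 against KIN neurons, and fits with one library left out called 8 to 9. The call of *Igf1* was lost with DESeq2, in the fit of all 18 libraries and in 4 of 6 fits with one library left out (without KIN microglia 1, KIN microglia 3, KIN neurons 1 or KIN neurons 3, with log2FC of 1.16 to 1.59). That of *Fam20c* was lost with DESeq2, with a filter on a mean of at least 10 counts and without KIN microglia 2, KIN microglia 3, KIN neurons 2 or KIN neurons 3 (log2FC 0.68 to 1.07).

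**Figure D3:**
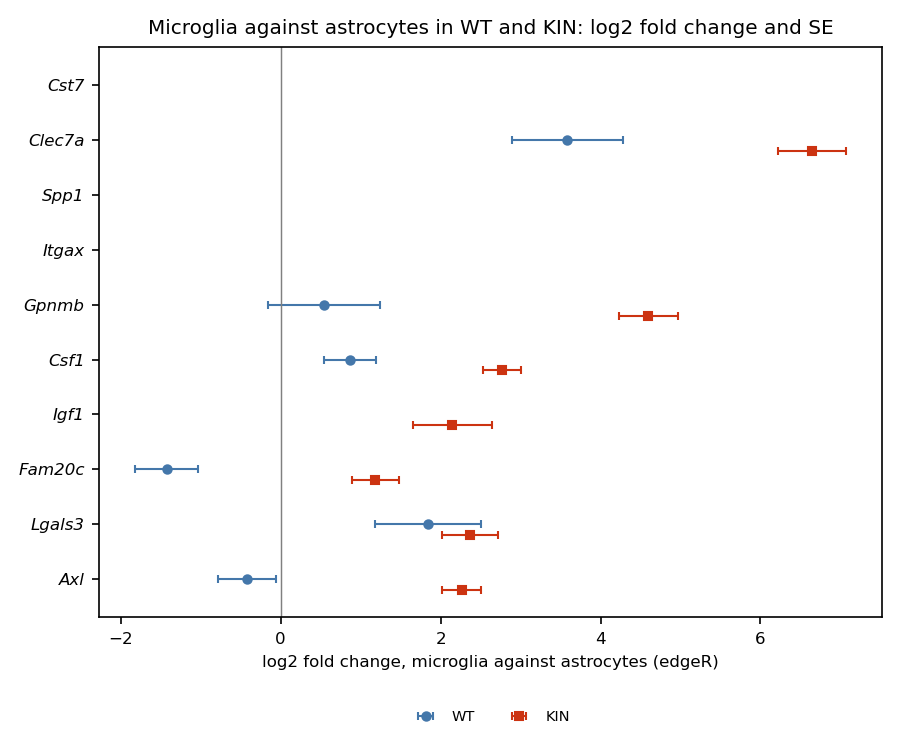
Log2 fold change of microglia over astrocytes within WT (circles) and within KIN brains (squares), with bars of 1 SE, for the genes tested and not at 0 in a group (*Cst7*, *Spp1* and *Itgax* have no point). *Fam20c* changes side, from -1.43 in WT to 1.18 in KIN, whereas *Axl*, at -0.42 in WT, had overlapping WT libraries.

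Of the 55 transcripts of the 10 genes, 53 had reads and 21 passed the same low-count filter over the 18 libraries, 17 of them protein-coding, 3 with a retained intron and 1 protein-coding with a predicted loss of function. Reads were mapped to cDNA sequences and could be divided among isoforms that share the 3′ end, so the transcript values are uncertain. *Cst7* has 1 listed transcript, which held all of its 7 WT and 129 KIN microglial reads. In *Itgax* the transcript ENSMUST00000033053 held 11 of 12 WT and 132 of 138 KIN reads. In *Gpnmb* ENSMUST00000031840 held 8 of 12 WT reads (66.7%, Clopper-Pearson 95% interval 34.9 to 90.1) and 184 of 206 KIN reads (89.3%, 84.3 to 93.2), with overlapping intervals. These 3 genes were thus carried almost wholly by one transcript in KIN microglia. In *Clec7a* the main transcript was Clec7a-203, annotated as protein-coding with a loss of function, with 24 of 33 reads (72.7%, 54.5 to 86.7) in WT and 202 of 242 (83.5%, 78.2 to 87.9) in KIN. It had 9, 7 and 8 reads in the WT and 66, 65 and 71 reads in the KIN microglial libraries, while Clec7a-201 had 1 and 20 reads in sum.

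*Csf1* was spread over 6 transcripts that passed the filter. ENSMUST00000014743 held 27 of 77 reads (35.1%) in WT and 85 of 323 (26.3%) in KIN microglia, and Csf1-202 held 17 of 77 and 71 of 323. The retained-intron transcript Csf1-206 had 4, 0 and 4 reads in the WT and 23, 12 and 27 in the KIN libraries. Its share was 10.4% (4.59 to 19.5) in WT and 19.2% (15.1 to 23.9) in KIN. These intervals pool the reads of the libraries and cover counting error only. The shares of single libraries overlapped, from 0% to 19.05% in WT and 12.77% to 22.12% in KIN. In the fit of single transcripts, 11 of the transcripts were called higher in KIN microglia, where 0.503% of the 14126 transcripts tested were, and nothing is read from this count since the contrast chose the genes. Among them were the same *Gpnmb* transcript (log2FC 4.33), ENSMUST00000031243 of *Spp1* (4.34), Clec7a-203 (2.90) and Csf1-206 (2.76). They belong to 8 of the 10 genes, since none of *Lgals3* was called and none of the 8 listed *Igf1* transcripts passed the filter. *Lgals3* was divided over 3 transcripts, with 8, 9 and 4 of 21 reads in WT and 31, 39 and 26 of 97 reads in KIN microglia. In astrocytes 6 transcripts of the 10 genes were tested and 0 were called, where 2.58% of the 15548 transcripts tested were called higher and 5.78% lower.

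**Figure D4:**
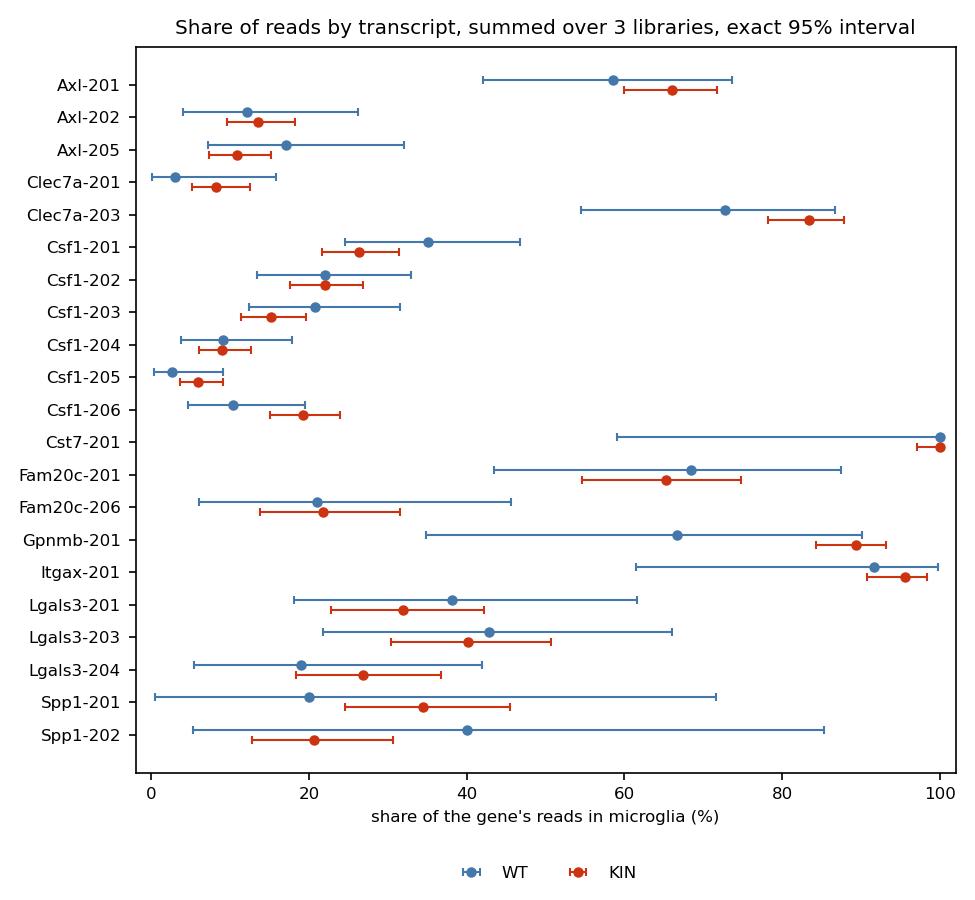
Share of each gene's microglial reads held by the 21 transcripts that passed the filter, in percent, for WT (blue) and KIN (red) with the reads of 3 libraries summed and bars for exact 95% intervals. *Cst7*, *Itgax* and *Gpnmb* are held mainly by one transcript, whereas *Csf1* and *Lgals3* are divided over several.

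Partners of the 10 gene products were examined from a list of 26 genes (receptors of the ligands, ligands of the receptors, signalling and target proteins), of which 23 were tested in microglia. The list, like the others used here, was chosen with earlier results of these data known, so its counts are no independent evidence. *Lgals3bp* and *Ctsl* also belong to the list of other DAM genes read below. Only 1 of the 23 partners was called higher in KIN microglia and 0 lower, beside 0.739% and 0.785% of all genes. The median log2FC of the partners was 0.20, beside -0.004 over all 10831 genes tested. At an unadjusted *p* under 0.05, 7 of the 23 were higher and 0 lower, where 6.22% and 5.76% of all genes were. They were, named after their values were seen and beside *Lgals3bp* and *Itgb2*, *Sdc4* (a cell-surface proteoglycan, log2FC 1.33, edgeR adjusted *p* = 0.0840), *Card9* (the adaptor of Dectin-1, 0.99, 0.258), *Ctsl* (cathepsin L, 0.92, 0.0408), *Ctsc* (cathepsin C, 0.87, 0.102) and *Itgb5* (an integrin chain, 0.49, 0.393). The one called was *Lgals3bp*, the secreted galectin-3 binding protein, with 2.67, 19.3 and 2.97 CPM in the WT and 52.3, 31.9 and 34.4 CPM in the KIN libraries (log2FC 2.37, SE 0.42, edgeR adjusted *p* = 0.00312). The high WT value is that of library 2, which stood apart, and DESeq2 did not call the gene (adjusted *p* = 0.122). Over the fits with one library left out, the log2FC of *Lgals3bp* ran from 1.85 to 3.79. *Csf1r*, the receptor of *Csf1*, was at 123, 240 and 125 CPM in WT and 195, 167 and 158 CPM in KIN (log2FC 0.10, SE 0.25, edgeR adjusted *p* = 0.953). *Gas6*, the ligand of AXL, had a log2FC of 0.15 (SE 0.28, adjusted *p* = 0.935), *Mertk*, a receptor of the same family, one of -0.31 (SE 0.24, adjusted *p* = 0.709), and *Pros1*, whose product protein S binds MERTK and TYRO3, one of 0.37 (SE 0.25, adjusted *p* = 0.647) by edgeR. *Igf1r* (-0.21, adjusted *p* = 0.916), the osteopontin receptor *Cd44* (0.33 from 8 WT and 11 KIN reads, adjusted *p* = 0.953) and *Itgb2*, the partner chain of CD11c (0.69, SE 0.27, adjusted *p* = 0.269, all KIN libraries above all WT), were not called by edgeR. The signs of *Csf1r*, *Gas6* and *Cd44* turned when single libraries were left out.

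Of 17 upstream receptors and transcription factors of the DAM state, 15 were tested and 0 were called by edgeR in either direction, with 3 higher and 0 lower at an unadjusted *p* under 0.05 and a median log2FC of 0.27. Over all genes tested, 6.22% were higher and 5.76% lower at that unadjusted *p*. *Trem2* was at 76.0, 146 and 73.7 CPM in WT and 156, 125 and 124 CPM in KIN microglia (log2FC 0.46, SE 0.26, edgeR adjusted *p* = 0.519). *Tyrobp*, its adaptor, was at 33.5, 106 and 30.9 CPM in WT and 172, 79.5 and 76.5 CPM in KIN (log2FC 0.96, SE 0.36, edgeR adjusted *p* = 0.223). In both genes WT microglia 2 was the only WT library to overlap the KIN libraries, and without it *Tyrobp* was called higher at a log2FC of 1.74. Without KIN microglia 1, its highest KIN library, the log2FC of *Tyrobp* was 0.46.

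Other DAM genes were read from a list of 28, of which 25 were tested in microglia and 10 were called higher and 0 lower, beside 0.739% and 0.785% of all genes. All 25 had a positive log2FC, with a median of 0.96. Beside *Lgals3bp* they were *Lyz2* (lysozyme, log2FC 1.51, adjusted *p* = 0.0134), *Mpeg1* (perforin-2, 1.47, 0.00398), *Cd63* (a tetraspanin of late endosomes, 1.42, 0.00178), *Slc11a1* (the phagosomal metal transporter NRAMP1, 1.30, 0.0205), *Lpl* (lipoprotein lipase, 1.20, 0.0134), *Cd52* (a small surface glycoprotein, 1.19, 0.0163), *Ctsb* (cathepsin B, 1.19, 0.0056), *B2m* (the light chain of MHC class I, 1.18, 0.0131) and *Fth1* (ferritin heavy chain, 1.06, 0.0431), all by edgeR. The call of *Fth1* was lost with the replicate number as a block, in the fit of all 18 libraries, with the filter on a mean of at least 10 counts and with DESeq2 without independent filtering (log2FC 1.04 to 1.06, adjusted *p* from 0.0507 to 0.124 over these edgeR and DESeq2 fits). *Fth1*, *B2m* and *Cd52* each lost the call in 5 of 6 fits with one library left out, all but the one without WT microglia 2 (log2FC 0.72 to 1.21, 1.01 to 1.26 and 0.98 to 1.24). *Lpl*, *Slc11a1* and *Lyz2* lost it in 4 of 6 fits, and *Mpeg1* and *Ctsb* in 2 of 6. With DESeq2 without independent filtering the calls of *Lpl* and *Slc11a1* were lost too. *Cd63* was at 21.1, 29.7 and 19.1 CPM in the WT and 67.0, 61.9 and 57.1 CPM in the KIN libraries, with no overlap. The count moved with single libraries, to 4 without WT microglia 1, 17 without WT microglia 2, 3 without WT microglia 3, 4 without KIN microglia 1, 2 without KIN microglia 2 and 6 without KIN microglia 3. The list was chosen with earlier results of these data known, so its direction is no independent evidence.

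Of 13 genes of homeostatic microglia all were tested and 0 were called by edgeR, with 4 lower and 0 higher at an unadjusted *p* under 0.05, beside 5.76% and 6.22% of all genes, and a median log2FC of -0.23. With one library left out 0 to 1 of these genes were called lower, and with the replicate number as a block 1 was. The summed level of the 13 genes was 1765, 3714 and 1639 CPM in the WT and 2976, 1911 and 1929 CPM in the KIN libraries, with overlap. Most of it was *Cst3*, at 1481 ± 857 CPM in WT and 1506 ± 498 CPM in KIN, and the other 12 genes summed to 749, 1244 and 682 CPM in the WT and 895, 692 and 712 CPM in the KIN libraries, a split made after the values were seen. *P2ry13*, a purinergic receptor named here after its values were seen, was at 19.3, 27.7 and 18.6 CPM in the WT and 9.91, 12.9 and 9.74 CPM in the KIN libraries. All its KIN libraries lay below all WT ones, with an edgeR adjusted *p* of 0.0462 and a log2FC of -0.99 (SE 0.26), just under the fold for a call.

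**Figure D5:**
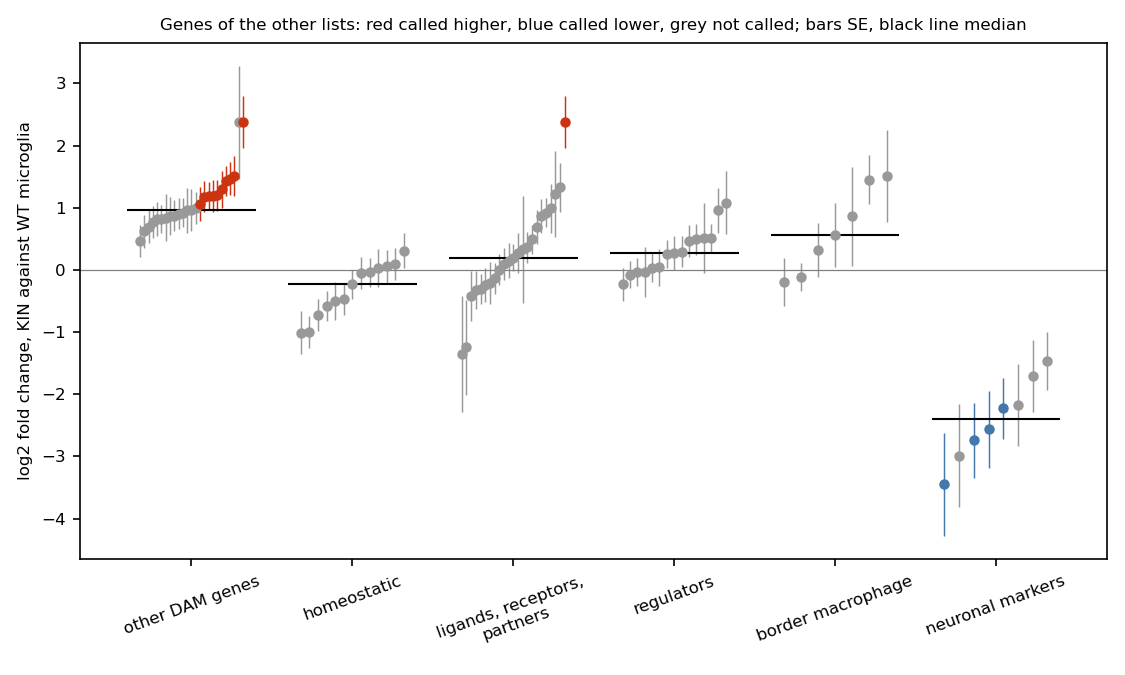
Log2 fold change, KIN over WT in microglia, of each tested gene of 6 lists, with bars of 1 SE, black lines for the medians, red for genes called higher and blue for genes called lower. The 25 other DAM genes lie between 0.46 and 2.37, the partners and regulators spread around medians of 0.20 and 0.27, and the neuronal markers lie around -2.40.

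In astrocytes 3 of the 15 tested genes of the other DAM list were called by edgeR, 2 higher and 1 lower, beside 2.43% and 6.42% of all genes, and each stayed called with any one library left out. *B2m* (log2FC 1.58, SE 0.31) and *Timp2*, an inhibitor of metalloproteinases (1.40, SE 0.26), were higher in KIN, and *Lpl* was lower (-1.47, SE 0.31). Among the 21 tested partners 3 were called lower in KIN astrocytes and 0 higher, beside the same 6.42% and 2.43%, *Mertk* (-1.17, SE 0.29), *Fam20a*, the pseudokinase that activates FAM20C (-2.25, SE 0.41), and *Itgam*, the CD11b chain (-2.81, SE 0.97, from 18 WT reads). Without KIN astrocytes 3 only *Fam20a* stayed called, and without any other single library 2 of these 3 did, *Mertk* being lost without WT astrocytes 2. With DESeq2 without independent filtering the calls of *Mertk* (adjusted *p* = 0.0658) and *Itgam* (0.220) were lost. Of 6 tested homeostatic genes 1 was lower, *Cst3*, the cysteine protease inhibitor cystatin C (-1.03, SE 0.22, its size under 1 without WT astrocytes 2, without KIN astrocytes 2 and, at -0.997, with the replicate number as a block), and of 7 regulators 0 were called by edgeR, with 1 higher and 1 lower at an unadjusted *p* under 0.05, beside 10.4% and 14.5% of all genes. Cell markers moved in the same libraries. The 8 astrocyte markers summed to 651, 961 and 648 CPM in the WT and 366, 383 and 394 CPM in the KIN astrocytic libraries, with none at 0, and 3 of 8 were called lower. The 6 oligodendrocyte markers summed to 300.3, 475 and 312 CPM in WT and 488, 479 and 483 CPM in KIN (2 of 6 called higher), and 10 genes of the response to dissociation to 69.8, 83.7 and 74.2 CPM in WT and 126, 99.8 and 96.4 CPM in KIN (1 of 9 tested called higher). None of these 3 sums overlapped between the genotypes, whereas the 8 neuronal markers did (38.0 to 116 CPM in WT and 32.7 to 52.8 CPM in KIN, 6 called lower). WT astrocytes 2 was the WT library with the highest astrocyte and oligodendrocyte sums and the lowest neuronal sum. The part of these differences in the astrocytic results was not tested.

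Markers of other cells were counted beside these results. The 10 markers of border macrophages summed to 68.0, 72.8 and 65.3 CPM in the WT and 67.0, 73.8 and 72.4 CPM in the KIN microglial libraries, with none at 0 in a whole group and 0 of 7 tested called by edgeR (1 at an unadjusted *p* under 0.05). All KIN libraries were above all WT ones in 2 of the 7, beside 8.49% of all genes, *Mrc1* (2.24 CPM in WT and 6.06 CPM in KIN on average, log2FC 1.45, adjusted *p* = 0.0582) and *Pf4* (1.51, adjusted *p* = 0.419), named after their values were seen. Most of that sum was *Stab1*, at 51.8 CPM in WT and 47.6 CPM in KIN, and the other 9 markers summed to 15.7, 15.3 and 19.5 CPM in the WT and 19.4, 22.9 and 27.8 CPM in the KIN libraries, a split made after the values were seen. Thus the KIN libraries lay above all WT ones for these 9 markers in 2 of 3 cases, and the third lay just under the highest WT library. The 10 markers of monocytes and granulocytes summed to 70.9, 74.7 and 63.6 CPM in WT and 34.5, 111 and 29.2 CPM in KIN, with *Camp* at 0 in KIN and 0 of 6 tested called by edgeR (0 at an unadjusted *p* under 0.05). That sum overlapped between the genotypes. The 8 neuronal markers did not overlap, with 54.0, 14.9 and 38.6 CPM in WT and 8.72, 7.88 and 6.61 CPM in KIN microglia, and 4 of 8 tested were called lower, beside 0.785% of all genes. The summed oligodendrocyte markers (20.8 to 27.3 CPM in WT, 12.7 to 14.7 CPM in KIN, 0 of 3 tested called) and astrocyte markers (23.3 to 34.8 and 15.9 to 18.3 CPM, 2 of 4 called lower) did not overlap either. The 5 endothelial markers overlapped (38.6 to 52.5 CPM in WT and 47.3 to 52.3 CPM in KIN), with 1 of 4 tested called lower, *Cldn5* (log2FC -2.12, edgeR adjusted *p* = 0.0135). The 10 genes of the response to dissociation overlapped too (972 to 1077 CPM in WT and 956 to 1071 CPM in KIN), with 1 of 10 called lower, the heat shock gene *Hspa1a* (log2FC -1.36, edgeR adjusted *p* = 0.0134), and both genes were named after their values were seen. The 5 microglial markers overlapped, with 371, 644 and 372 CPM in WT and 478, 406 and 413 CPM in KIN. The part of these differences in the results on the 10 genes was not tested.

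The genes whose levels followed the mean of the 10 most closely over the 18 libraries were *Lox* (Pearson r 0.96), *Bcl2a1a* (0.93), *Cxcl16* (0.92), *Ifi207* (0.92) and *Plaur* (0.91), among 13542 genes compared. *Lox*, the collagen cross-linking enzyme lysyl oxidase, had means of 0.613 CPM in WT and 3.92 CPM in KIN microglia. The chemokine *Cxcl16* went from 3.21 to 11.3 CPM, the urokinase receptor gene *Plaur* from 1.74 to 6.84 CPM, *Bcl2a1a* from 1.72 to 5.70 CPM and *Ifi207* from 0.528 to 2.31 CPM. All of them were near 0 in astrocytes and neurons. The border macrophage marker *Mrc1* was the 7th in this order (r 0.91). The 18 points share fraction, genotype and depth, so these correlations describe the libraries and carry no *p*.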

How the data were processed

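RNA of 18 libraries (3′-end sequencing with unique molecular identifiers after rRNA depletion and polyadenylation) was counted by the authors. Per the labels and the study's methods, reads were trimmed with cutadapt 4.6, mapped to mouse cDNA (mm39) with Bowtie2 2.4.4 and counted with HTSeq 2.0.2 without strand, so reads of overlapping antisense genes cannot be told apart, and DESeq2 gave the authors' fold changes, means and p-values, which were not used. The study's supplement lists non-coding RNA and DNA references for these libraries and names cDNA only for the small RNA libraries. The deposited table holds raw counts for 116873 transcripts, and 36 further columns with values of single samples were left aside. Counts were summed by gene name, leaving 35823 names and 137 transcripts without one (at most 0.0305% of a library's counts). The transcripts without a name stayed as rows of their own and were tested where they passed the filter.

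Each comparison used the 6 libraries of its 2 groups in edgeR 4.0.16 (quasi-likelihood, TMM; limma 3.58.1, R 4.3.3), genes with 5 or more reads in 2 or more libraries, and Benjamini-Hochberg adjustment over all genes of the fit. A call needed an adjusted p no higher than 0.05 and a log2FC of 1 or more in size. Shares and ratios have exact 95% intervals on reads pooled over libraries, which cover counting error only. The fits were tested on simulated counts, where 152 of the 197 genes tested of those changed by 2 on the log2 scale were recovered in the microglial contrast (10831 genes) and 105 of 187 in the neuronal one (6765 genes). DESeq2 1.42.0, other scaling, other filters, a fit of all 18 libraries, transcripts and leaving out each library were the alternatives.

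The members and lists were chosen with earlier results of these data known. Named by a rule were all 10 members and their 21 transcripts passing the filter, list genes called in microglia or astrocytes (at most 10 a list), *Csf1r*, *Gas6*, *Pros1*, *Mertk*, *Igf1r*, *Itgb2*, *Cd44*, *Trem2* and *Tyrobp*, and the 5 genes most correlated with the members. Further list genes, such as *Sdc4*, *P2ry13*, *Mrc1*, *Stab1* and *Cldn5*, were named outside this rule after their values were seen. The labels number the replicates 1 to 3 in every group but do not say that equal numbers mark one mouse, and p-values measure the spread between these samples. One gene of the marker and homeostatic lists is not reported here, and the sums and counts were computed without it.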

Additional observations from a re-analysis of the deposited data

Results flagged for a closer look

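*Fam20c* had opposite differences between microglia and astrocytes in the 2 genotypes, with every library of one fraction on one side. In WT brains the microglial libraries (2.08 to 3.46 CPM) lay below the astrocytic ones (6.70 to 7.51 CPM), at a log2FC of -1.43. In KIN brains they lay above them (9.91 to 12.5 against 2.88 to 6.89 CPM), at a log2FC of 1.18, a call lost at 0.78 without KIN astrocytes 1. The difference between the 2 contrasts was not tested, and the genes were selected on the KIN and WT microglial libraries that enter it.

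*Lpl*, lipoprotein lipase, had opposite differences between the genotypes in the 2 glial fractions. Its level was 9.20, 7.42 and 11.4 CPM in WT and 21.8, 22.9 and 20.2 CPM in KIN microglia (log2FC 1.20), and 10.9, 10.1 and 13.5 CPM in WT and 5.18, 3.07 and 3.83 CPM in KIN astrocytes (log2FC -1.47). No library overlapped in either fraction, and the difference between the fractions was not tested. The call in microglia was lost in 4 of 6 fits with one library left out (without WT 1, KIN 1, KIN 2 or KIN 3, edgeR adjusted p from 0.0622 to 0.106) and with DESeq2 without independent filtering (0.0998), while that in astrocytes held in all 6. The summed astrocyte markers were also lower in the KIN astrocytic libraries (366 to 394 CPM) than in the WT ones (648 to 961 CPM), and their part in the difference of *Lpl* was not tested.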

How the results depend on the processing

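Low counts limit what these libraries can show, since 4 of the 10 genes had too few reads in WT microglia to pass the filter there and 6 and 9 of them were untested between genotypes in astrocytes and neurons. Whether depth or a low level of the genes set these counts was not tested. In microglia 135 of 143 alternative values for the 10 genes kept their direction and side of the threshold, 8 lost the call and 0 turned. These refits reuse the libraries on which the genes were selected, so the tally describes the processing and is no independent support. DESeq2 called 4 of the 10 there, because its independent filtering gave 9659 of 10831 genes, 6 of the 10 among them, no adjusted p. Without that filtering, an alternative added after seeing the data, it called 9 of the 10 and 6 of the other DAM genes. With one library left out, edgeR called 8 to 10 of the 10 genes and 2 to 17 of the other DAM genes in microglia, 0 in astrocytes, 2 to 3 between WT microglia and WT astrocytes and 2 to 3 against WT neurons. Among KIN libraries it called 9 to 10 against astrocytes (*Fam20c* at 0.78 without KIN astrocytes 1) and 8 to 9 against neurons. With a mean of at least 10 counts 1 gene was called between WT microglia and astrocytes and 1 against neurons, as only 3 and 1 of them stayed in those fits.

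Signs turned for differences that were not called. *Csf1* in astrocytes came to -0.013 with the mean filter, and with one library left out it ran from -0.065 to 0.16, below 0 without WT 1, WT 2 and KIN 2. *Axl* in astrocytes ran from -0.44 to 0.043 (above 0 without WT 2), and *Gpnmb* between WT microglia and neurons from -0.12 (without neurons 3) to 1.11. In microglia *Csf1r* ran from -0.083 to 0.48 (below 0 without WT 1, WT 3 or KIN 1), *Cd44* from -0.21 to 0.57 (below 0 without WT 1 or WT 3) and *Gas6* from -0.038 (without KIN 2) to 0.36. The cause was not tested. Same-numbered libraries of the 2 microglial groups did not deviate together (correlations -0.0637, -0.0192 and 0.054), and those of WT microglia and WT astrocytes had correlations of 0.0641, 0.209 and 0.098, where libraries 1 of both groups correlated less with each other than with a library of another number (0.0705 and 0.0669). With the replicate number as a block, 10 of the 10 genes were called in microglia, 0 in astrocytes and 0 in neurons, 3 between WT microglia and astrocytes and 3 against neurons, and 10 in each KIN contrast, with 154 against 165 calls over all genes in microglia. The block ended the calls of *Fth1* in microglia and *Cst3* in astrocytes, called 1 homeostatic gene lower in microglia against 0 without it, and changed no other call of a named gene.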
